A study of Danio rerio with 8 samples.

Results

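The long arm of zebrafish chromosome 4 carries a dense set of genes that mostly have clone-based names or zinc-finger (znf) names, and this set was compared between runx2b-/- mutant and wild type fish. The members were taken by a rule on position and name, which was chosen with earlier results of these data known. It took every gene of the deposited count table with all its exons on chromosome 4, a smallest start of at least 27000000 and a symbol beginning with si:, zgc:, znf, im:, wu:, BX, CR, CU or CABZ. The rule found 971 genes among the 25279 of the table, the first starting at 28374990 and the last ending at 76594730. The mutant group held 3 bulk RNA libraries of runx2b-/- zebrafish, and the wild type group held 3 libraries of runx2b+/+ zebrafish. All 6 came from muscle that still contained its intermuscular bones, taken at 60 days post fertilization, and all fish carried the sp7/eGFP transgene. Neither the sex of the fish nor their number per library is given in the labels, and pooling is not mentioned; if the libraries do not stand for different fish, the spread behind every p-value below is technical.

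As background, the long arm of this chromosome is known in zebrafish as late-replicating heterochromatin that is rich in repeats, in C2H2 zinc-finger genes and in NLR-type immune genes, and poor in genes with counterparts in other vertebrates. C2H2 zinc-finger proteins bind DNA through tandem fingers, and many of their genes arose by local duplication, so neighbours can be near-identical. In natural zebrafish strains the far end of the same arm carries a sex-linked region. The individual functions of most genes named below are not known, and none is given where only a clone name exists.

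Library totals ran between 17280098 counts (mutant library 2) and 20482003 counts (wild type library 2), and the members held 0.0522% to 0.0655% of them. The 8 skeletal muscle markers were all tested and none was called, with summed levels of 157194 to 294232 CPM (counts scaled to library size) in mutant and 197382 to 302890 CPM in wild type. Some markers of other cell types did differ: of 9 tested red blood cell markers 5 were higher in mutant, with summed levels of 1679 to 1914 CPM in mutant and 1231 to 1421 CPM in wild type. The neutrophil gene lyz (-5.04), the macrophage gene c1qb (-0.88), the epidermal gene epcam (-2.67) and the bone gene bglapl (-3.10, log2 scale) were lower in mutant, each the only one called on its list. Those lists had 2, 7, 7 and 6 tested genes, with median log2 fold changes of -2.97, -0.78, 0.02 and -0.48. lyz had 1, 0 and 1 counts in mutant, against 23, 47 and 15 in wild type. It thus passed the low-count filter through wild type libraries alone, which favours a large fall. The part of cell make-up in the results on the long arm was not tested. runx2b itself had 12 counts over the mutant libraries and 10 over the wild type libraries, which is too low to check the genotype. In bulk tissue, fewer cells of a type and less RNA per cell cannot be told apart. The 7 vitellogenin genes, egg yolk precursors of the female liver, had summed levels of 0.233, 0.604 and 0.382 CPM in mutant libraries 1 to 3 and 31.6, 31.5 and 33.1 CPM in wild type libraries 1 to 3. All 4 tested ones were lower in mutant and vtg6 had 0 counts there. These 4 had at most 3 counts in any mutant library, so they too passed the filter through wild type libraries alone, which favours a fall. vtg3, too low to test, had 1, 0 and 5 counts in mutant and 1, 6 and 5 in wild type. For these genes, sex and genotype cannot be told apart, and the part of sex in the results on the long arm was not tested.

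Many long-arm genes differed between the genotypes, in both directions and by large folds. Of the 971 members 225 had enough counts to be tested, and 40 of these were called by edgeR (quasi-likelihood test, Benjamini-Hochberg adjustment over all tested genes, adjusted p under 0.05): 15 were higher and 25 lower in mutant. That is 17.8% of the tested members, beside 3.37% of all 14107 tested genes. The higher members were 6.67% of those tested, beside 1.76% of all genes, and the lower ones 11.1%, beside 1.62%. The rises ran from 1.12 to 3.08 on the log2 scale with a median of 1.73, and the falls from -1.15 to -4.86 with a median of -2.52. All of the 40 had a log2 change of 1 or more in size and 22 (55%) one of 2 or more, against 98 (20.6%) of the 476 called genes of the whole table. Among called genes over the filter's level in both genotypes, a change of 2 or more was seen in 8 of 25 members (32%), beside 8.66% of 404 genes. There the median was 1.47 for the 11 rises and -1.86 for the 14 falls. The tested members had a median level of 0.96 CPM, beside 3.43 CPM for all tested genes. At low counts only changes of several fold could be called, so these sizes are not compared at like levels. The median log2 fold change of the tested members was -0.10, beside -0.01 over all tested genes. The groups did not overlap in 88 of the 225 (39.1%), beside 24.6% of all tested genes. An unadjusted edgeR p under 0.05 was reached by 73 (32.4%), beside 19.4% of all tested genes.

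Some of these genes passed the low-count filter only through the genotype in which they were high, and the filter itself favours a difference in such genes. This held for 10 members that exceeded the filter's level in mutant libraries alone, of which 4 were called higher, and 17 that exceeded it in wild type libraries alone, of which 11 were called lower. Of the genes named below, the rises CR388095.3, si:dkeyp-77c4.5, znf1106 and si:dkey-201g16.5 were of this kind. So were the falls si:dkey-264f17.2, BX936384.1, si:ch211-171l17.14, si:dkey-71l4.5, si:dkey-59l11.10, si:dkeyp-5g9.1, si:dkey-254e13.6 and the im: gene. The sizes of their changes carry that bias. Of the 198 members over that level in at least 1 library of each genotype, 25 were called (11 higher, 14 lower), which is 12.6% beside 2.91% of all such genes. With a filter on total counts that ignores genotype, 37 of 221 members were called (16.7%, beside 2.96% of all genes). With no filter, 62 of all 971 members were called (6.39%, beside 4.59% of all genes), 19 higher and 43 lower, and these included each of the 40. With at least 50 counts required in 3 libraries, 44 members were left and 18 were called, 10 higher and 8 lower, beside 3.68% of all such genes. The 3 libraries of 1 genotype alone can meet this filter, as those of wild type did for BX936384.1, so it favours a difference too.

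How many members were called turned on single libraries. Without mutant library 1, 7 members were called higher and 14 lower, which is 7.81% of 269 tested members, beside 0.903% of all tested genes. The called members were 7 and 15 without mutant library 2 (8.3%, beside 1.04%) and 5 and 14 without mutant library 3 (7.09%, beside 0.776%). They were 8 and 13 without wild type library 2 (8.14%, beside 1.0%). Leaving out wild type library 1 gave 14 and 27 (16.7%, beside 4.61%), and leaving out wild type library 3 gave 21 and 28 (18.6%, beside 8.25%). The 40 kept their direction in these fits, which groups that do not overlap fix in advance. Of the 40, 14 (3 higher, 11 lower) also kept their call in all 6 of these fits, which is 35%, beside 17.6% of the 476 called genes of the table. Among the 14 are genes that passed the filter through wild type libraries alone, such as si:dkey-264f17.2 and BX936384.1. The 2 shares are thus not compared at like sizes of change or like passage of the filter.

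**Figure D1:**
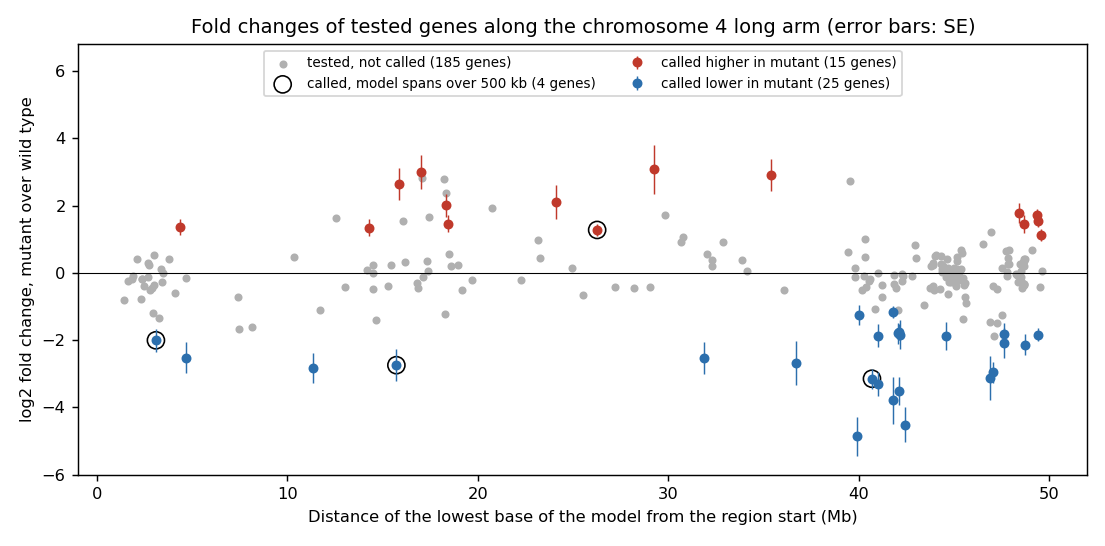
Log2 fold change, mutant over wild type, of each of the 225 tested members against the distance of its model's lowest base from the region start in Mb. Red points are the 15 genes called higher, blue points the 25 called lower (bars: SE), grey points the others, and open circles mark the 4 called genes whose models span over 500 kb; the blue points crowd together at about 40 to 43 Mb.

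Among members with models of at most 500 kb, 2 long stretches along the arm held calls of 1 direction only, and elsewhere the directions were mixed. For this description 916 members whose models span at most 500 kb were ordered by their smallest start, of which 207 were tested and 36 called. This limit, set after the data were seen, left out 1 called rise and 3 called falls. Of these falls, si:dkey-29j8.1 starts at 42717673, among the rises of the run of 7 below. Read in order, the 36 formed 11 runs of like direction, of which 6 were a single gene and 3 held 2 genes. The longest run held 17 lower genes in a row with no higher one between them, between 63688505 and 74658454, and the next longest held 7 higher genes in a row, between 41292389 and 56252197. Within the run of falls 66 of the 101 tested members had a negative fold change, and within the run of rises 23 of 35 had a positive one. These counts include the 17 and 7 called genes that define the runs, whose direction was thus fixed in advance. Some called genes of both runs, such as si:dkeyp-77c4.5 and si:dkey-264f17.2, passed the filter through 1 genotype alone, which favours a call in that direction. None of the 7 rises kept its call without each single library, while some of the 17 falls did. Among neighbouring tested members at most 100 kb apart, 64 of 98 pairs (65.3%) had fold changes of the same sign, beside 51.8% of 10065 such pairs among other genes of the main chromosomes and 56% of 655 pairs among genes with the same name prefixes elsewhere. Neighbours can be near-identical copies that share reads, so these pairs are a description and were not tested.

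In windows of 5 Mb the called directions differed between windows, which was not tested. Over all 225 tested members 6.67% were higher and 11.1% lower, beside 1.76% and 1.62% of all tested genes. The windows hold only the 207 with models of at most 500 kb. Left out were the called rise si:dkey-61p9.9 and the called falls zgc:174944, si:dkey-29j8.1 and si:dkey-265e15.5. The last (-2.00, SE 0.34, edgeR adjusted p = 0.00834; named after its values were seen) lies at 30093637 to 31733788. By its smallest start, 42717673, si:dkey-29j8.1 would fall between 40 and 45 Mb. Between 25 and 30 Mb none of the 14 tested members was called. The windows from 30 to 35, 55 to 60 and 60 to 65 Mb held 1 rise and 1 fall each, of 8, 10 and 5 tested members, and that from 35 to 40 Mb held 1 fall of 4. In the 3 windows from 40 to 55 Mb, 3 of 16, 2 of 11 and 1 of 6 were higher and none was lower. From 65 to 70 Mb 11 of 35 were lower and none was higher, and the median of the 35 was -0.37 on the log2 scale. From 70 to 75 Mb, the window with the most tested members, 5 of 72 were lower, none was higher and the median was -0.09. In the last window, from 75 Mb on, 5 of 26 were higher and 2 lower.

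**Figure D2:**
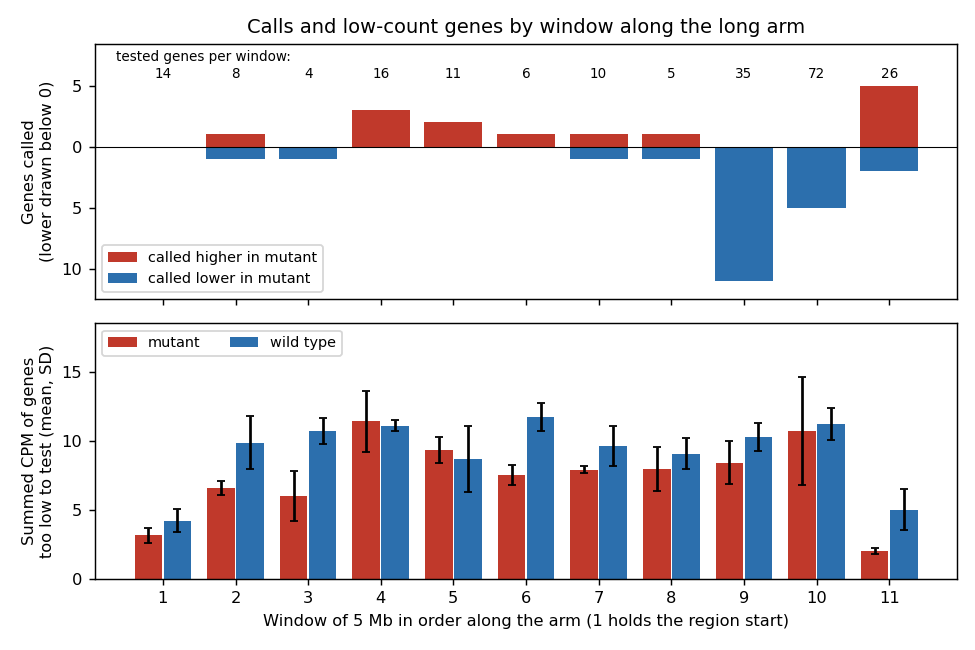
Windows of 5 Mb in order along the arm (1 holds the region start), for members with models of at most 500 kb. The upper panel counts genes called higher in mutant (red, above 0) and lower (blue, below 0) with the number tested printed above, and the lower panel gives the summed CPM of the genes too low to test (mean and SD, 3 mutant and 3 wild type libraries); window 9 holds 11 falls and no rise.

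The deepest falls lay in the window from 65 to 70 Mb. si:dkey-264f17.2 (66896990 to 66940099, + strand) had 2, 0 and 1 counts in mutant libraries 1 to 3, against 36, 30 and 38 in wild type libraries 1 to 3. BX936384.1 (69417301 to 69420512, - strand; a model of 205 exonic bases) had 0, 4 and 3 counts in mutant, against 69, 52 and 61 in wild type. Both genes had under 10 counts in every mutant library, so they passed the count filter through wild type libraries alone, which favours a large fall. The log2 fold changes were -4.86 (SE 0.57, edgeR adjusted p = 0.000661) for si:dkey-264f17.2 and -4.51 (SE 0.52, edgeR adjusted p = 0.000559) for BX936384.1, and both calls held without each single library.

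si:dkey-193i10.4 (69106876 to 69127784, - strand) had 3, 6 and 16 counts in mutant, against 107, 102 and 104 in wild type, an 11.4-fold fall (-3.51, SE 0.41, edgeR adjusted p = 0.0011). si:ch211-171l17.14 (67989008 to 68031006, - strand) had 5, 3 and 6 counts in mutant, against 52, 61 and 41 in wild type, a 9.88-fold fall (-3.31, SE 0.35, edgeR adjusted p = 0.000277). The wild type libraries were close to each other in both genes, and both calls held without each single library. Groups apart were a condition for naming these genes. si:dkey-193i10.4 shares 942 exonic bases, 23.8% of its length, with si:ch211-76m11.5 on the same strand, which fell as well (-1.75, SE 0.23, edgeR adjusted p = 0.00166; named after its values were seen), so the split of reads between the pair is uncertain. The single member with an im: name (68816117 to 68823793, - strand) had 0, 3 and 1 counts in mutant, against 15, 28 and 22 in wild type (-3.79, SE 0.69, edgeR adjusted p = 0.0114). Its call ended without mutant library 1, mutant library 3 or wild type library 2 (edgeR adjusted p up to 0.09).

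The falls were densest in a stretch of 386 kb around these genes, from 68765919 to 69151952, a stretch picked after its values were seen. It held 13 members with models inside it, of which 9 were tested. All 9 had negative fold changes and 5 were called, while the 4 others lay between -1.11 and -0.05 on the log2 scale. Beside si:dkey-193i10.4 and the im: gene, the called ones were si:ch211-127b6.2, si:dkeyp-80d11.10 and si:dkey-193i10.1. si:ch211-127b6.2 had 68, 60 and 64 counts in mutant, against 158, 161 and 145 in wild type, the smallest fall among the 25 (-1.15, SE 0.18, edgeR adjusted p = 0.00587), and kept its call without each single library. It shares exonic bases on the same strand with 5 genes, among them 672 with BX548059.1, so the 9 are not independent measurements. si:dkeyp-80d11.10 stood at -1.80 (SE 0.31, edgeR adjusted p = 0.00847) and lost its call without mutant library 1 or 2 (up to 0.0528). si:dkey-193i10.1 stood at -1.84 (SE 0.42, edgeR adjusted p = 0.0365) and lost it with limma voom, without wild type library 2 or without any 1 mutant library (up to 0.188).

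2 genes of 1 clone near 74 Mb were called lower, while 2 tested genes of the same clone starting between them were not called. si:dkey-71l4.4 stood at 1.23 (SE 0.49, edgeR adjusted p = 0.196) and si:dkey-71l4.3 at -0.38 (SE 0.34, edgeR adjusted p = 0.581). These 2 uncalled genes were named after their values were seen. si:dkey-71l4.2 (74050173 to 74070442, - strand) had 9, 17 and 13 counts in mutant, against 94, 126 and 113 in wild type, a 7.78-fold fall that held without each single library (-2.96, SE 0.32, edgeR adjusted p = 0.000277). For si:dkey-71l4.5 (73900473 to 73930099, - strand) the log2 fold change was -3.12 (SE 0.65, edgeR adjusted p = 0.0224), with 7 counts over the mutant libraries and 71 over the wild type libraries. The call of si:dkey-71l4.5 ended without wild type library 2 or any 1 mutant library (edgeR adjusted p up to 0.12) and with limma voom (0.0566).

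3 other named falls lay at or before the start of the long run of falls. si:dkey-59l11.10 (38356231 to 38367135) fell by 2.82 (SE 0.44, edgeR adjusted p = 0.00566), with 16 counts over the mutant libraries and 121 over the wild type libraries, and kept its call without each single library. si:dkey-254e13.6 (58842360 to 58872200) fell by 2.52 (SE 0.48, edgeR adjusted p = 0.0141), and si:dkeyp-5g9.1 (63688505 to 63699433) by 2.67 (SE 0.66, edgeR adjusted p = 0.0479). The call of si:dkey-254e13.6 ended without mutant library 2 or 3 or wild type library 2 (edgeR adjusted p up to 0.0741). That of si:dkeyp-5g9.1 ended without wild type library 2 or any 1 mutant library (up to 0.196), with limma voom and with upper-quartile scaling. 2 of the named falls had models that reach across the arm, so they have no single place: si:dkey-29j8.1 (42717673 to 68308627; -2.74, SE 0.47, edgeR adjusted p = 0.01) and zgc:174944 (67686010 to 74722238; -3.15, SE 0.30, edgeR adjusted p = 0.000117). zgc:174944 had 11, 15 and 23 counts in mutant, against 147, 160 and 166 in wild type, and held its call without each single library, while that of si:dkey-29j8.1 ended without mutant library 2 or wild type library 2 (edgeR adjusted p up to 0.0622). zgc:174944 shares exonic bases with 5 other genes, among them 307 with si:dkey-71l4.2, and si:dkey-254e13.6 shares 1093 (28%) with si:dkey-16p6.1, which was not called (-0.14; named after its values were seen).

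The rises of the block between 41 and 57 Mb were likewise several-fold. BX927253.2 (42834270 to 42837744, - strand) had 68, 33 and 49 counts in mutant, against 9, 2 and 14 in wild type, a 6.24-fold rise (2.64, SE 0.48, edgeR adjusted p = 0.0135). si:dkeyp-77c4.5 (44011268 to 44106545, - strand) had 28, 13 and 21 counts in mutant, against 2, 2 and 4 in wild type (2.98, SE 0.51, edgeR adjusted p = 0.00851). In both genes the lowest mutant library lay above the highest wild type library, which the rule for naming genes required. Near 45 Mb, si:ch211-215p11.1 (45323401 to 45348614) stood at 5.55 ± 0.70 CPM in mutant and 1.41 ± 0.90 CPM in wild type (SD, n = 3 each; 2.01, SE 0.35, edgeR adjusted p = 0.0121). Wild type library 3 was higher than the other wild type libraries there, with 43 counts against 20 and 19. si:dkey-31n13.4 (45414591 to 45429537) stood at 7.46 ± 1.45 CPM in mutant and 2.72 ± 0.93 CPM in wild type (1.47, SE 0.26, edgeR adjusted p = 0.0108). si:ch211-215p11.1 shares 814 exonic bases with si:dkey-26m3.3 on the same strand, which had 509 counts in mutant and 102 in wild type and was not called (edgeR adjusted p = 0.0797; named after its values were seen).

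None of these 4 calls held without each single library. Those of BX927253.2 (edgeR adjusted p up to 0.0966) and si:dkeyp-77c4.5 (up to 0.0742) ended without mutant library 1 or 3, the first also without mutant library 2 and the other also without wild type library 2. Those of si:ch211-215p11.1 (edgeR adjusted p up to 0.0837) and si:dkey-31n13.4 (up to 0.0752) ended without mutant library 1 or 2 or wild type library 2, and the first also without mutant library 3. The 2 called rises with the highest adjusted p in this stretch were si:dkey-201g16.5 (51104371 to 51142043; 4.29-fold, edgeR adjusted p = 0.0438) and CR388095.3 (56232547 to 56252197; 3.08, SE 0.73, edgeR adjusted p = 0.0441). CR388095.3 had 62 counts over the mutant libraries, against 8 over the wild type libraries. Both calls ended without wild type library 2 or any 1 mutant library, with limma voom and with the filter that ignores genotype (edgeR adjusted p up to 0.212 without 1 library), and that of si:dkey-201g16.5 also without wild type library 1. Ahead of the block, si:rp71-5o12.3 (31362540 to 31446959) was higher by 1.36 (SE 0.23, edgeR adjusted p = 0.00821), and its call ended without mutant library 1 or 3 (up to 0.059).

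**Figure D3:**
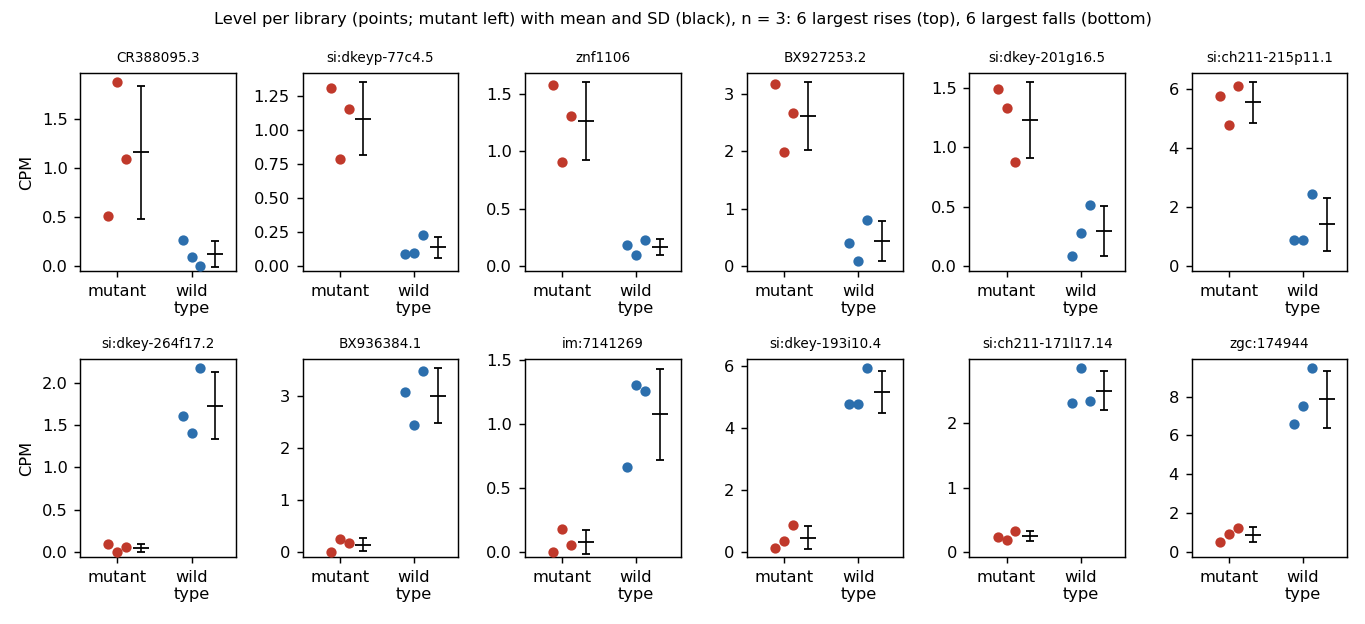
CPM in each library (red: mutant, blue: wild type) with mean and SD in black (n = 3 each) for the 6 members with the largest rises (top) and the 6 with the largest falls (bottom), each on its own axis. Groups apart were a condition of the selection, so the points of the 2 genotypes overlap in no panel. Wild type levels of si:dkey-264f17.2 were 1.41 to 2.17 CPM.

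Among the genes named for zinc fingers, 23 of 137 were tested and 2 were called, in opposite directions. znf1106 (62361900 to 62369289, - strand) had 34, 15 and 24 counts in mutant, against 4, 2 and 4 in wild type, a 7.53-fold rise (2.91, SE 0.47, edgeR adjusted p = 0.00672) whose call ended without mutant library 1 (edgeR adjusted p = 0.0608). znf971 (75720985 to 75726937, - strand; protein-coding in RefSeq) had 11, 7 and 13 counts in mutant, against 56, 50 and 43 in wild type, a 4.39-fold fall that held without each single library (-2.13, SE 0.30, edgeR adjusted p = 0.00296). The 23 had a median log2 fold change of -0.17. Of 162 znf genes elsewhere in the genome 140 were tested, and 1 rose and 3 fell (2.86%, beside 3.37% of all tested genes), with a median of -0.05. The si: genes were most of the tested members (119 of 225) and held most of the calls on the arm, with 10 higher and 19 lower. The clone accession names (BX, CR, CU and CABZ) followed with 3 and 2 of 60, and the zgc: genes with 1 and 2 of 22. The im: gene described above fell, and the single wu: gene was too low to test.

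The last stretch of the arm held the most precisely measured changes. si:dkey-238k10.1 (76350510 to 76360318, + strand) had 334, 289 and 295 counts in mutant, against 98, 109 and 94 in wild type, a 3.31-fold rise (1.73, SE 0.17, edgeR adjusted p = 0.00013). si:dkey-238k10.2 (76377194 to 76528321, + strand) had 1506, 1200 and 1229 counts in mutant, against 483, 472 and 507 in wild type, a 2.89-fold rise (1.53, SE 0.17, edgeR adjusted p = 0.000326). Both were among the 5 tested members with the highest levels per length, at 16.3 (mutant) and 4.92 (wild type) CPM per kb for si:dkey-238k10.1 and at 19.2 and 6.67 CPM per kb for si:dkey-238k10.2. Yet si:dkey-238k10.3, whose model (76423877 to 76525546, + strand) lies within that of si:dkey-238k10.2, had 44, 37 and 36 counts in mutant, against 161, 149 and 143 in wild type. It was 3.57-fold lower (-1.84, SE 0.19, edgeR adjusted p = 0.000277; named after its values were seen). All 3 calls held without each single library, and the libraries within each genotype were close together.

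Parts of this trio share exonic bases with other genes of the table. si:dkey-238k10.2 and si:dkey-238k10.3 have no exonic base in common in the table, but each shares bases (216 and 206) with si:zfos-2131b9.2, a gene with 2 counts in mutant and 31 in wild type that RefSeq lists as a long non-coding RNA. si:dkey-238k10.1 shares 827 bases, 82.2% of its length, with si:dkey-61p9.9, whose model spans 53258026 to 76361603 on both strands and which was itself higher (1.27, SE 0.17, edgeR adjusted p = 0.00164), so reads of this pair may be shared. Nearby, BX005417.1 (75411477 to 75428073) rose by 1.78 (SE 0.29, edgeR adjusted p = 0.00668) and si:dkey-172k15.5 (75662519 to 75673735; protein-coding in RefSeq) by 1.45 (SE 0.27, edgeR adjusted p = 0.0123). The call of BX005417.1 ended without mutant library 3 (edgeR adjusted p = 0.0563) and that of si:dkey-172k15.5 without mutant library 2 or 3 or wild type library 2 (up to 0.0857). The last called member of the arm was zgc:113921 (76581353 to 76590118; named after its values were seen), which RefSeq lists as ikbip. It was higher by 1.12 (SE 0.18, edgeR adjusted p = 0.0072), its call ended without mutant library 2 or 3 (up to 0.0564), and it shares 261 exonic bases (4.57%) with terfa.

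**Figure D4:**
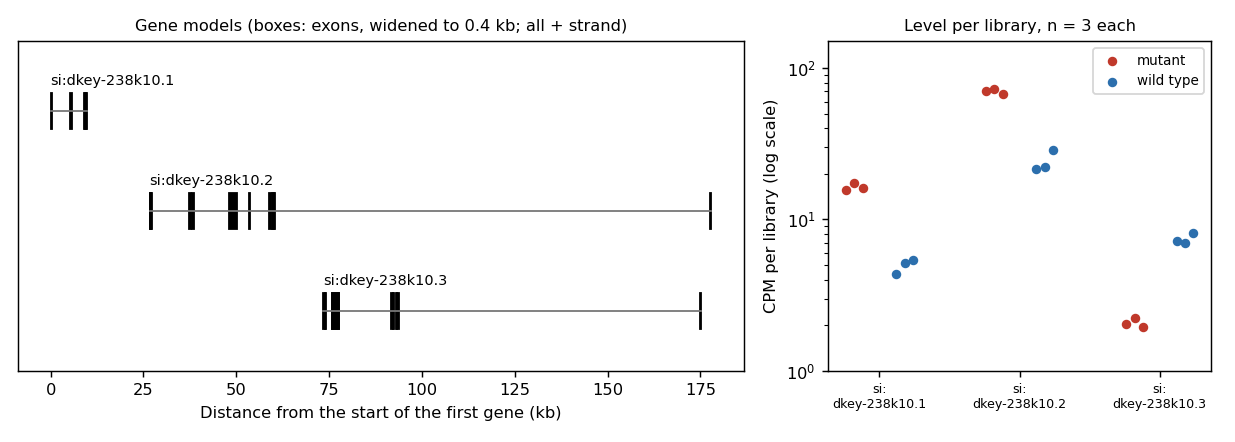
Left, gene models of the 3 neighbouring si:dkey-238k10 genes from the deposited table, as distance in kb from the start of the first, with boxes for exons. Right, CPM in each library on a log axis (red: mutant, blue: wild type, n = 3 each); the first 2 genes were 3.31-fold and 2.89-fold higher in mutant and the third was 3.57-fold lower.

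Several members were silent in mutant libraries. With at least 10 counts in the other genotype, 10 members had 0 counts in all mutant libraries and 1 member had 0 counts in all wild type libraries; none passed the count filter. Of the 626 members with at least 10 counts in all, 1.6% were silent in mutant and 0.16% in wild type, beside 0.874% and 0.08% of the genes outside the set and 2.63% and 0.174% of genes with the same prefixes elsewhere, so the share was not highest on the arm. BX957234.1 (47058220 to 47062559) had 3, 13 and 9 counts in wild type and was at least 7.67-fold lower in mutant, when set against 3 counts over the mutant libraries. si:ch211-209n20.1 (38112725 to 38126597) had 2, 13 and 9 counts in wild type and was at least 7.36-fold lower, and si:dkeyp-86c4.1 (37113146 to 37155474) had 6, 8 and 4 and was at least 5.52-fold lower. These bounds leave out the counting error of the wild type group and the spread between its libraries. The reverse case, BX088712.2 (65385843 to 65395487; named after its values were seen), had 5, 2 and 3 counts in mutant.

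5 of the 10 silent genes are direct neighbours on the - strand between 75536652 and 75558338. CU467646.7 had 27, 17 and 1 counts in wild type libraries 1 to 3, CU467646.3 had 21, 6 and 0, and zgc:173770 had 17, 5 and 0. Against the same floor of 3 counts, their summed levels were at least 13.8-fold, 8.28-fold and 6.75-fold lower in mutant. These bounds leave out the spread between wild type libraries. CU467646.3 and zgc:173770 had 0 counts in wild type library 3 too, so their groups overlapped. The 2 others, CU467646.1 and CU467646.2 (named after their values were seen), had 13 counts each over the wild type libraries. In all 5 wild type library 1 was the highest and wild type library 3 had at most 1 count. The 17 germ cell and oocyte markers in the table had summed levels of 4.15, 4.77 and 4.91 CPM in mutant libraries 1 to 3, against 20.2, 12.5 and 3.94 CPM in wild type libraries 1 to 3. Of these markers 2 were tested, sycp1 (0.25, SE 0.25) and piwil2 (-0.27, SE 0.37), and none was called. sycp1 had 63, 45 and 64 counts in mutant and 41, 67 and 48 in wild type, and piwil2 had 16, 18 and 22 and 22, 38 and 15. These 2 genes held most of the marker counts in each mutant library and in wild type library 3. The markers dazl, nanos3, gdf9, sycp3, dnd1, ca15b and tdrd7a had 0 counts in all mutant libraries. The part of germ cell RNA in the counts of these 5 genes was not tested.

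The 746 members too low to test had a lower mean sum in mutant, and so did the other genes too low to test. Summed levels of the 746 were 78.0, 100 and 87.2 CPM in mutant and 125, 108 and 97.2 CPM in wild type, so the groups overlapped. Those of the 10426 other genes were 1195, 1267 and 1168 CPM in mutant and 1726, 1578 and 1318 CPM in wild type, without overlap. A lower sum in mutant was thus not particular to the arm. Of the 746, 468 (62.7%) had more CPM in wild type, beside 57.3% of the 10426 other genes of the table that were too low to test. Wild type library 1, which had the most germ cell marker RNA, was the highest in the sum of the 746 and in that of the other genes. The part of germ cell RNA in either sum was not tested. The 25 called falls, chosen for differing between the groups, summed to 14.1, 19.6 and 18.7 CPM in mutant libraries 1 to 3 and to 70.6, 81.2 and 85.5 CPM in wild type libraries 1 to 3. The 15 called rises summed to 166, 180 and 172 CPM in mutant and 54.3, 58.7 and 74.2 CPM in wild type.

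**Figure D5:**
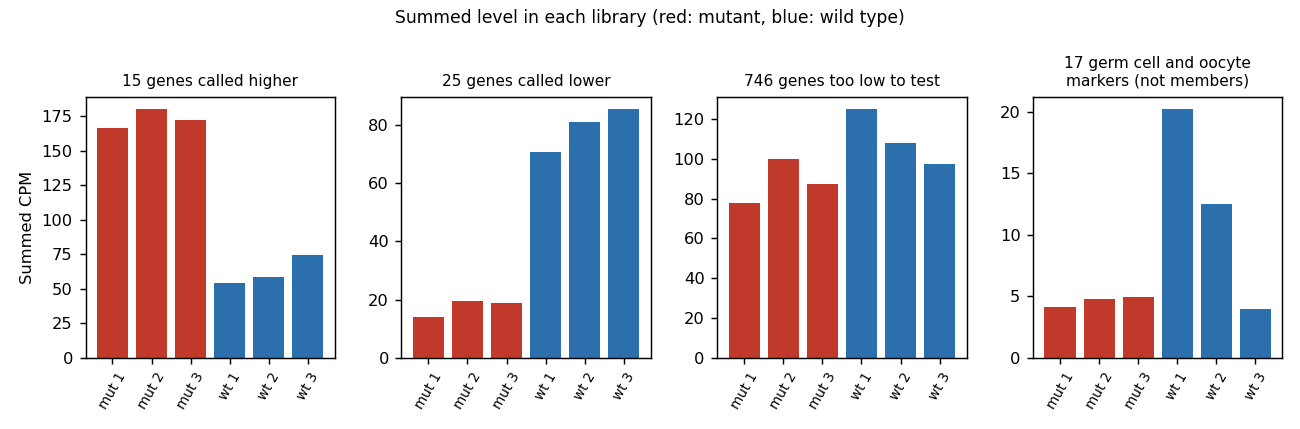
Summed CPM in each library (3 mutant in red, 3 wild type in blue) of the 15 members called higher, the 25 called lower, the 746 too low to test and 17 germ cell and oocyte markers that are not members. The called sets separate the groups by their selection. The germ cell markers range from 4.15 to 4.91 CPM in mutant, mostly from sycp1 and piwil2, and from 3.94 to 20.2 CPM in wild type.

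The models of called and uncalled members had these features. The called falls had a median exonic length of 3956 bases and the called rises 3786, beside 3434 for tested members that were not called and 2652 for all tested genes. Both strands carried calls in each direction, with 7 rises on each strand, 9 falls on the + strand and 15 on the - strand. Of the tested members 91 lay on the + strand, 122 on the - strand and 12 on both. Per length the tested members were weakly expressed, with a median level of 0.336 CPM per kb, beside 1.28 for all tested genes, and the called rises had a median of 0.918 and the called falls one of 0.312. Exonic bases were shared with another gene of the table in 6 of the 15 rises, 15 of the 25 falls and 100 of the 225 tested members. Among the 125 that shared none, 9 were higher and 10 lower, beside 1.76% and 1.62% of all tested genes. Of the 40 called members 10 shared exonic bases with another called member, so the 40 are not all separate measurements. Of the 5 tested members with the highest levels per length, those not called were BX548011.1 and CABZ01069015.2. BX548011.1, a model of 168 bases, had 105, 63 and 2165 counts in mutant, against 192, 74 and 122 in wild type, and its value rested on mutant library 3 (2.74, SE 1.67; without that library -0.53). CABZ01069015.2 was even between the groups, with 99, 51 and 68 counts in mutant and 66, 60 and 84 in wild type (0.13, SE 0.26).

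Genes at the limits of the rules had these values. The nearest members beyond the threshold were BX664605.2 (1.53, SE 0.39, edgeR adjusted p = 0.0516) and BX548059.1 (-1.11, SE 0.29, edgeR adjusted p = 0.055). The first tested member of the region, znf1067 (28429500 to 28463053), stood at -0.82 (SE 0.43). It exceeded the filter's level in wild type libraries alone, which favours a fall. The last tested gene ahead of it, tnni1d at 26368161, a troponin I gene, stood at -0.30 (SE 0.18). Of the 117 long-arm genes with other names 37 were tested and 2 were lower (5.41%, beside 3.37% of all tested genes). These were ms4a17a.14 (-1.03, SE 0.21, edgeR adjusted p = 0.0214) and CT025651.1 (-2.43, SE 0.21, edgeR adjusted p = 5.16e-05). An unadjusted edgeR p under 0.05 was reached by 10 of the 37, and the groups did not overlap in 12. Both shares lay above those of all tested genes (19.4% and 24.6%) and below those of the members (32.4% and 39.1%). These differences were not tested. CT025651.1, close to znf971, had 39, 26 and 28 counts in mutant, against 205, 161 and 173 in wild type.

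Other parts of the genome had fewer calls per tested gene, a difference that is described here and was not tested. On chromosome 4 ahead of the region 3 of 365 tested genes were called (0.822%), all lower. Genes with the same name prefixes elsewhere had 47 higher and 54 lower of 2278 tested (4.43%). Their median absolute log2 fold change among called genes was 1.45, beside 2.05 for the long-arm members and 1.20 for all called genes. The tested genes of these 3 sets had median levels of 1.98, 0.96 and 3.43 CPM, so the sizes are not compared at like levels.

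Of 43 listed regulators of heterochromatin, the form of chromatin that covers this arm, 38 were tested, 1 was higher and none was lower (2.63%, beside 3.37% of all tested genes), and their median log2 change was -0.05, beside -0.01 over all tested genes. The higher one was dnmt3aa, a de novo DNA methyltransferase gene, at 7.30 ± 0.96 CPM in mutant and 3.72 ± 1.08 CPM in wild type (SD, n = 3 each; 0.98, SE 0.23, edgeR adjusted p = 0.0403). That call ended without wild type library 2 or any 1 mutant library (edgeR adjusted p up to 0.188), with limma voom, with library size only and with the stricter filter. The chromatin remodeller gene hells had the largest difference (-2.36, SE 0.73) and was not called (edgeR adjusted p = 0.132). The H3K9 methyltransferase genes setdb1a (-0.05, SE 0.17) and setdb1b (-0.05, SE 0.20), the maintenance methyltransferase gene dnmt1 (-0.71, SE 0.37) and the HP1 gene cbx5 (-0.24, SE 0.19) were not called either (these 5 were named after their values were seen).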

How the data were processed

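The deposited table listed whole-number gene counts of 6 bulk libraries, 1 column each with no scaling, per the file headers. The aligner, the counting program, its strand setting and its treatment of reads that fit several genes are not given in the sources used here. Cell Ranger and GRCz11 appear in the submitters' processing notes without being tied to this table, so coordinates are printed as the table gives them. Copies of this region are similar, so reads could be split or merged among them. The 2 single-cell samples were not analysed here.

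All genes were fitted in R 4.3.3 with edgeR 4.0.16 (filterByExpr defaults of 10 counts per library and 15 in total, trimmed mean of M-values scaling, robust quasi-likelihood test, no covariate), with Benjamini-Hochberg adjustment over all tested genes. A positive log2 fold change means higher in mutant, and SE is the absolute value divided by the square root of F. 3 counts corresponded to 0.134 to 0.181 CPM per library. The alternatives were other scalings and filters, DESeq2 1.42.0, limma 3.58.1 voom, a length correction, a replicate block and leaving out each library. The test was also run on simulated counts, with results not reported here. Replicate libraries were further apart than counting error allows (chi-square over its degrees of freedom of 23.2 to 84.8), so each counted as 1 replicate.

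Called members were named by a rule: the 12 largest rises and 12 largest falls with groups apart, called znf genes, the 5 most abundant per length, the 2 nearest the threshold, up to 6 silent in 1 group and the genes at the region start. Members, lists and windows were chosen with earlier results of these data known. Of the 971 members 149 matched RefSeq (GRCz12tu) by symbol or synonym, 145 of them on chromosome 4 alone and 147 protein-coding.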

Additional observations from a re-analysis of the deposited data

How the results depend on the processing

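The number of higher members (15) stayed within 1.5 times of itself under the scalings, DESeq2, limma voom and the length correction, and so did the number of lower members (25). The lower members numbered 43 with no filter and 8 with at least 50 counts in 3 libraries, where 44 members were tested; all genes called, 476 in the main setting, numbered 1161 and 304 there. With single libraries left out, higher members ranged from 5 to 21, lower members from 13 to 28 and all calls from 115 to 1225. Members sharing no exon base gave 9 higher and 10 lower, a setting added after the data were seen, as were the filter that ignores genotype and the limit of 500 kb. Leaving out members whose model overlaps any tested model gave 0 and 0, since only 3 tested members were left. 3 values of named genes changed sign: BX548011.1 to -0.53 without mutant library 3, and CABZ01069015.2 to -0.04 without mutant library 1 and -0.03 without wild type library 2; over all such fits BX548011.1 ranged from -0.53 to 3.28 and CABZ01069015.2 from -0.04 to 0.41, and none was called. The replicate numbers did not pair the libraries (correlations of deviations of -0.0553, 0.0348 and 0.0306 over 14107 genes), and with them as a block 14 members were higher and 20 lower, of 377 genes called; the calls of CR388095.3 (adjusted p = 0.0935, edgeR), si:dkey-201g16.5 (0.088) and si:dkeyp-5g9.1 (0.0632) were among those not made with the block, as was that of si:dkey-193i10.1. Many members have counts so low that only changes of several fold could be called.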
